A study of Homo sapiens with 24 samples.

Results

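The 36 genes described here are a fixed list of hypoxia-responsive genes and of the proteins that control the hypoxia-inducible factors (HIFs), taken by name from the 19775 genes that a probe set with a single gene symbol represented on the array. Each gene was read from its probe set of highest mean over the 24 arrays, and its other probe sets served as a check. Of the 36 genes, 35 passed the filter on low signals and were tested together with all 14141 genes that passed it. PPFIA4 lay under the filter. By role the list holds 7 oxygen-sensing regulators, 6 transcription and chromatin regulators, 4 secreted factors, 6 collagen and matrix enzymes, 6 genes of mitochondria, mitophagy and growth restraint, 3 genes of glycogen and lipid storage and 4 other induced genes.

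HIFs are transcription factors made of an oxygen-regulated alpha subunit, HIF1A or EPAS1, and the partner ARNT. With oxygen present, prolyl hydroxylases of the EGLN family mark the alpha subunit, VHL binds the mark and the protein is degraded, and HIF1AN hydroxylates it at another residue and blocks its activity. When oxygen is short, or when metabolites inhibit the hydroxylases, the alpha subunit escapes this control and the dimer binds DNA at the core letters ACGTG or GCGTG, so that its activity is regulated largely on the protein and not on the mRNA. In tumour cells this programme drives glycolysis, blood vessel growth, collagen processing and mitophagy.

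The study hybridised biotin-labelled cRNA to 24 Affymetrix arrays, 3 for each of 8 groups, and used HS578T, SUM149PT and SUM159PT, which are established lines of human breast cancer cells. In the shRNA experiment, SUM149PT cells carried a lentiviral shRNA against MCT1, a plasma membrane transporter of lactate and pyruvate, and were set against SUM149PT cells with a scrambled lentiviral shRNA; both were kept under puromycin (2 µg/ml) for 5 days of selection. In the inhibitor experiment, HS578T, SUM149PT and SUM159PT cells were given AZD3965, an MCT1 inhibitor, for 24 hours, each against the same line given DMSO for 24 hours. The design text describes the lines as highly glycolytic and asks whether MCT1 contributes to the Warburg metabolic phenotype. HS578T cells grew in DMEM with serum and penicillin-streptomycin, and SUM149PT and SUM159PT cells in F12 with serum, penicillin-streptomycin, insulin, hydrocortisone, EGF and gentamicin, so line and medium cannot be told apart for HS578T. The dose of AZD3965, the number of shRNA sequences and the time from infection to selection are not given in the sources used here. Whether the 3 arrays of a group stem from separate cultures is not stated in the labels, and a p-value here covers no more than the spread among those arrays, possibly a technical one.

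Signals ran from 0.0284 to 52949 units over the 24 arrays. Scramble array 3 stood apart from the others. The ratio of its 3′ to its 5′ control signal was 53.8 for actin, where the 23 others had 1.20 to 2.14, and 2.35 for GAPDH, where they had 0.798 to 0.948. Counts of calls with MCT1 shRNA are given with and without it. Of 8 epithelial markers, 8 exceeded a mean of 100 units in SUM149PT, 3 in HS578T and 2 in SUM159PT, and of 8 mesenchymal markers 8 did so in HS578T and SUM159PT and 5 in SUM149PT. In such bulk samples, fewer cells of a type and less RNA per cell cannot be told apart.

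The first comparison asked how the list responded to MCT1 shRNA in SUM149PT cells. Of the 35 tested genes, 17 rose at an adjusted p under 0.05 (limma, Benjamini-Hochberg over all genes tested) and 0 fell, where 14.9% of all genes tested were called in either direction, 7.22% higher and 7.64% lower. At an unadjusted p under 0.05 there were 19. Counts at an unadjusted p and of positive differences are given here and below without the share over all genes. They are therefore a description only. The difference in log2(signal + 16) was positive for 30 of 35 and its median was 0.26, against -0.0034 over all genes tested. In 19 of 35 all MCT1 shRNA arrays lay above all scramble arrays, which 14.6% of all genes tested did, and in 0 of 35 they lay below, which 15.2% of all genes did. Every fold change below is on the log2(signal + 16) scale, which understates changes of dim genes.

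**Figure D1:**
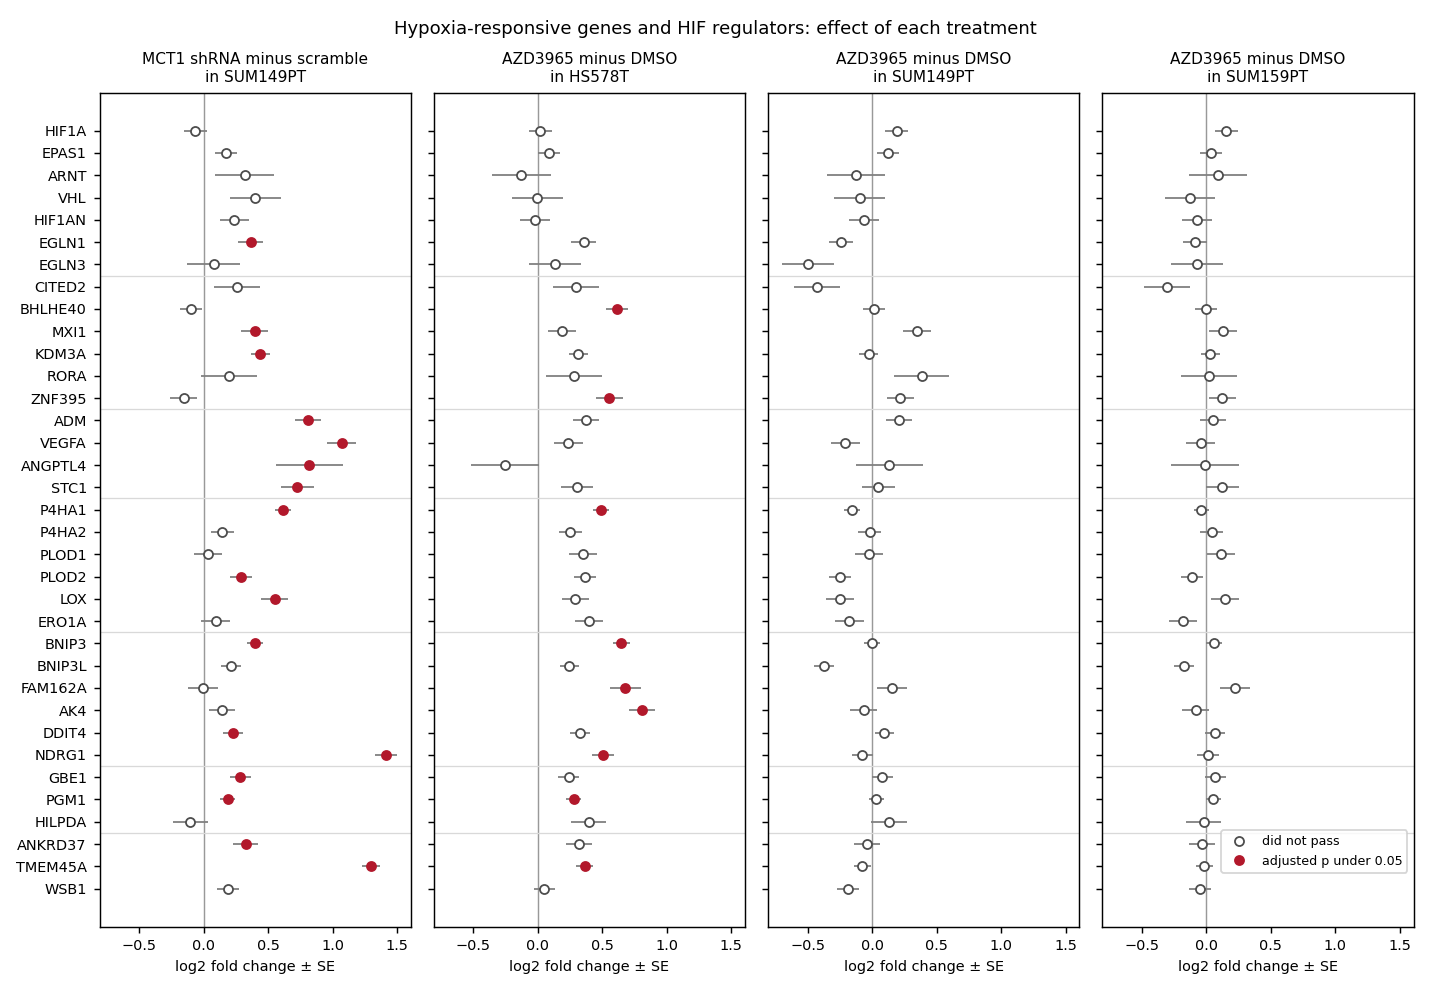
Log2 fold change ± standard error of the 35 tested genes in 4 panels, MCT1 shRNA minus scramble in SUM149PT and AZD3965 minus DMSO in HS578T, SUM149PT and SUM159PT. Red marks an adjusted p under 0.05, which 17 genes reached with MCT1 shRNA, 9 with AZD3965 in HS578T and 0 in the other lines.

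Among the oxygen-sensing regulators, 1 of 7 was called. HIF1A, the widely expressed alpha subunit, gave 17137, 17477 and 17856 units with MCT1 shRNA, against 18286, 17126 and 19588 units with scramble. The arrays overlapped, and the difference was -0.07 ± 0.09 (SE, limma adjusted p = 0.693, 95% interval -0.25 to 0.12). EPAS1, the alpha subunit also called HIF-2 alpha, gave 13564, 13483 and 15195 units with MCT1 shRNA, against 12300, 13522 and 11603 units with scramble. These also overlapped (0.18 ± 0.09, limma adjusted p = 0.188). EGLN1, the prolyl hydroxylase PHD2 and itself a HIF target, rose to 5484, 4590 and 4993 units with MCT1 shRNA, against 4081, 4346 and 3319 units with scramble. All its MCT1 shRNA arrays were above the scramble arrays (0.36 ± 0.10, limma adjusted p = 0.0113), but its other tested probe sets gave 0.03 and 0.03 and were not called, and without scramble array 3 the adjusted p was 0.0774, without MCT1 shRNA array 1 0.0719. ARNT (0.32 ± 0.23), VHL (0.40 ± 0.20), HIF1AN (0.24 ± 0.11) and EGLN3, the prolyl hydroxylase PHD3 (0.08 ± 0.20), had overlapping arrays and limma adjusted p-values of 0.181 to 0.853. On scramble arrays 1, 2 and 3 ARNT read 506, 456 and 199 units and VHL 455, 443 and 218 units. Without scramble array 3 the differences of ARNT and VHL were -0.09 and 0.07.

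Both regulators of chromatin and transcription that were called, of 6, are HIF targets. KDM3A, a histone H3 lysine 9 demethylase, rose to 2911, 2796 and 2873 units with MCT1 shRNA, against 2050, 2115 and 2159 units with scramble (0.44 ± 0.07, limma adjusted p = 0.000197). MXI1, an antagonist of MYC, rose to 2614, 2277 and 2784 units with MCT1 shRNA, against 1973, 1970 and 1862 units with scramble (0.40 ± 0.11, limma adjusted p = 0.0132). Neither overlapped between the groups, and MXI1 missed the threshold without MCT1 shRNA array 3 (adjusted p = 0.0762). BHLHE40, a transcriptional repressor induced by HIF, averaged 1787 ± 201 units with MCT1 shRNA and 1908 ± 116 units with scramble (SD, n = 3 each; -0.10, limma adjusted p = 0.509), and ZNF395 averaged 571 units with MCT1 shRNA and 637 units with scramble (-0.16, limma adjusted p = 0.36). CITED2, which competes with HIF alpha subunits for a coactivator, and the nuclear receptor RORA were not called (0.26 and 0.20). A further probe set of CITED2 was called, at 0.70 (limma adjusted p = 0.002).

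All 4 secreted factors rose. VEGFA, the main growth factor for blood vessels, gave 5283, 4998 and 5635 units with MCT1 shRNA, against 2309, 2689 and 2561 units with scramble. Its lowest MCT1 shRNA array was above its highest scramble array, the fold was 2.10 (1.07 ± 0.11, limma adjusted p = 4.3e-07) and 3 of 3 other tested probe sets were called at 0.78 to 1.12. ADM, the vasodilator peptide adrenomedullin, gave 2965, 2887 and 2983 units with MCT1 shRNA, against 2021, 1555 and 1499 units with scramble (0.81 ± 0.10, limma adjusted p = 6.4e-06). STC1, a secreted glycoprotein hormone, gave 1518, 1821 and 1969 units with MCT1 shRNA, against 1199, 962 and 1024 units with scramble (0.73 ± 0.13, limma adjusted p = 0.000295). Neither overlapped between the groups. ANGPTL4, an inhibitor of lipoprotein lipase, gave 836, 1048 and 534 units with MCT1 shRNA, against 413, 409 and 481 units with scramble. Its MCT1 shRNA arrays were the most scattered of the 4 relative to their mean, all above the scramble arrays (0.82 ± 0.26, limma adjusted p = 0.0371). Leaving out any 1 of the 6 shRNA experiment arrays except MCT1 shRNA array 3 moved its adjusted p to between 0.0528 and 0.19.

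Of 6 collagen and matrix enzymes, 3 rose. P4HA1, the alpha subunit of collagen prolyl 4-hydroxylase, gave 4414, 4128 and 4379 units with MCT1 shRNA, against 2959, 2856 and 2610 units with scramble. The groups were well apart (0.62 ± 0.06, limma adjusted p = 1.5e-07). A further probe set of P4HA1 was dim, with a mean of 9.71 units over all arrays, and averaging its probe sets gave an adjusted p of 0.267. LOX, which cross-links collagen, gave 2066, 2067 and 1929 units with MCT1 shRNA, against 1416, 1655 and 1110 units with scramble (0.55 ± 0.11, limma adjusted p = 0.000932). PLOD2, a collagen lysyl hydroxylase, averaged 8634 ± 387 units with MCT1 shRNA and 7064 ± 486 units with scramble (SD, n = 3 each; 0.29 ± 0.08, limma adjusted p = 0.0216), but missed the threshold when MCT1 shRNA array 1 (adjusted p = 0.0872), MCT1 shRNA array 3 (0.0575) or scramble array 3 (0.094) was left out. P4HA2, PLOD1 and ERO1A, an oxidase of the endoplasmic reticulum, had overlapping arrays and differences of 0.14, 0.03 and 0.09. A further probe set of ERO1A was called at 0.31 (limma adjusted p = 0.025), and PLOD1 was called without scramble array 3 (0.24, limma adjusted p = 0.0211).

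NDRG1 had the largest difference of the 35 tested members in this contrast. This stress-inducible growth suppressor gave 7622, 7690 and 8272 units with MCT1 shRNA, against 2939, 2776 and 3117 units with scramble. All MCT1 shRNA arrays stood far above all scramble arrays, and the fold was 2.66 (1.41 ± 0.08, limma adjusted p = 5.9e-11). BNIP3, a mitochondrial protein that recruits the mitophagy machinery, gave 7345, 8143 and 8106 units with MCT1 shRNA, against 6077, 5971 and 5872 units with scramble (0.39 ± 0.06, limma adjusted p = 0.000114). Its groups did not overlap, and its further tested probe set was called at 0.69. DDIT4, an inhibitor of mTORC1 signalling, averaged 17088 ± 871 units with MCT1 shRNA and 14592 ± 948 units with scramble (SD, n = 3 each; 0.23 ± 0.08, limma adjusted p = 0.0439). This call was lost in 11 of 24 fits that each left out 1 array, with adjusted p up to 0.172, reached without scramble array 3. The mitophagy receptor BNIP3L had non-overlapping arrays but did not pass (0.21, limma adjusted p = 0.0711). AK4, a mitochondrial adenylate kinase, gave 3832, 3371 and 3695 units with MCT1 shRNA, against 3421, 3603 and 2881 units with scramble, which overlapped (0.14, limma adjusted p = 0.41). FAM162A, a mitochondrial protein linked to hypoxia-induced cell death, averaged 9121 units with MCT1 shRNA and 9302 units with scramble (limma adjusted p = 0.989).

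In the storage group, GBE1, the glycogen branching enzyme, averaged 5403 ± 95.4 units with MCT1 shRNA and 4461 ± 586 units with scramble (SD, n = 3 each; 0.28 ± 0.08, limma adjusted p = 0.019). PGM1, which interconverts glucose 1-phosphate and glucose 6-phosphate, gave 6772, 6242 and 6931 units with MCT1 shRNA, against 5907, 5733 and 5886 units with scramble (0.18 ± 0.06, limma adjusted p = 0.0408). Its groups did not overlap, but the call was lost in 8 of 24 fits that left out 1 array (adjusted p up to 0.16, without MCT1 shRNA array 3), and that of GBE1 without MCT1 shRNA array 2 (0.0647) or scramble array 3 (0.125). HILPDA, a lipid droplet protein, was not called (-0.10). TMEM45A, a membrane protein, gave 9566, 9825 and 10304 units with MCT1 shRNA, against 3946, 3746 and 4382 units with scramble. Its lowest MCT1 shRNA array was above its highest scramble array, the fold was 2.46 and its adjusted p the smallest on the list (1.30 ± 0.07, limma adjusted p = 5.6e-12). ANKRD37, an ankyrin-repeat protein, averaged 3320 ± 114 units with MCT1 shRNA and 2667 ± 423 units with scramble (SD, n = 3 each; 0.33 ± 0.10, limma adjusted p = 0.0275); it missed the threshold without any 1 MCT1 shRNA array or without scramble array 1 or 2 (0.0571 to 0.151). WSB1, a substrate receptor of a ubiquitin ligase, had non-overlapping arrays but was not called (0.19, limma adjusted p = 0.149), and PPFIA4, under the filter, read 28.4, 63.1 and 15.3 units with MCT1 shRNA, against 29.2, 12.2 and 34.4 units with scramble.

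**Figure D2:**
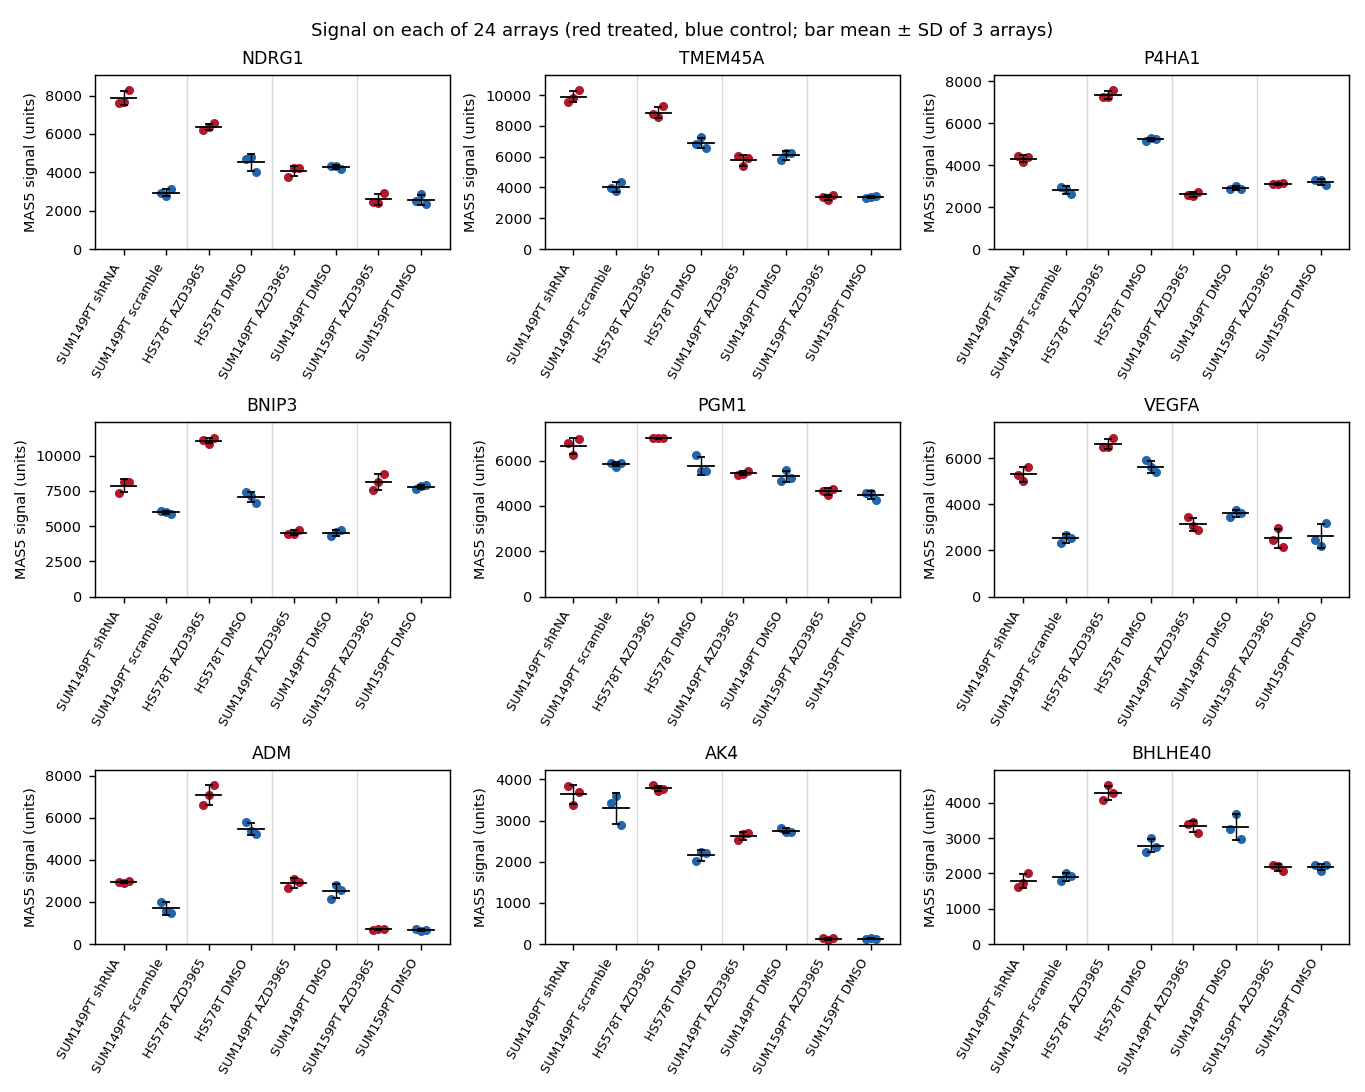
Signal in MAS5 units on each of the 24 arrays for 9 genes, with treated groups in red left of their controls in blue and a bar at the mean ± SD of 3 arrays. NDRG1, TMEM45A and VEGFA separate most in the shRNA experiment and AK4, BNIP3 and BHLHE40 in HS578T, while AK4 stays below 150 units in SUM159PT.

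Other genes moved with the shRNA too. The epithelial markers KRT19 (1.09 ± 0.10, limma adjusted p = 1.2e-07) and KRT8 (0.64 ± 0.17, limma adjusted p = 0.0121) rose and SNAI2, a mesenchymal transcription factor, fell by 0.41 on the log2 scale (limma adjusted p = 0.00016). All 8 epithelial markers had a positive difference, and so did 5 of 8 mesenchymal markers, whose differences ran from -0.41 to 0.42 with a median of 0.015. The summed signal of the 8 epithelial markers was 71463 to 77097 units with MCT1 shRNA and 54430 to 62229 units with scramble, and that of the 8 mesenchymal markers 22200 to 26824 units with MCT1 shRNA and 24499 to 25627 units with scramble. All 8 epithelial markers exceeded 100 units in both groups; the part of these markers in the result was not tested. Without scramble array 3, KRT19 (0.97) and SNAI2 (-0.43) passed and KRT8 did not (0.33, limma adjusted p = 0.0798). The difference was then positive for 7 of 8 epithelial markers and 3 of 8 mesenchymal markers. Without that array, 13 members and 12.3% of all genes tested were called, and of these members 11 were among the 17, EGLN1, ANGPTL4, PLOD2, DDIT4, GBE1 and PGM1 being lost and PLOD1 and BNIP3L gained. Centring each array on its median, which put the median of all genes at -0.12 for the shRNA contrast and 0.14 for AZD3965 in HS578T, left 7 members called with MCT1 shRNA (VEGFA, ADM, STC1, P4HA1, LOX, NDRG1 and TMEM45A), where the members' median was 0.15 and 12.2% of all genes were called, and fitting the 6 shRNA arrays alone left 8, with 6.11% of all genes.

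The second comparison asked how the list responded to 24 hours of AZD3965 in HS578T cells. Of the 35 tested genes 9 rose and 0 fell at an adjusted p under 0.05 (limma), where 0.304% of all genes tested were called in either direction, 0.212% higher and 0.0919% lower. At an unadjusted p under 0.05 there were 24, 31 of 35 differences were positive and the median was 0.30, against -0.02 over all genes tested. The AZD3965 arrays lay above all DMSO arrays for 24 of 35 members, which 8.42% of all genes tested did, and below them for 0, which 10.9% did. After median centring 8 were called (PGM1 lost) and the members' median was 0.46. The count was 4 without HS578T DMSO array 3 (ZNF395, FAM162A, NDRG1, PGM1 and TMEM45A lost), where 0.163% of all genes were called, and 14 without scramble array 3, whose spread enters the shared error, where 0.545% of all genes were called.

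The mitochondrial and growth-restraint genes held 4 of the 9 calls, out of 6. AK4 gave 3851, 3719 and 3775 units with AZD3965, against 2009, 2239 and 2218 units with DMSO. Its AZD3965 arrays were far above its DMSO arrays (0.81 ± 0.10, limma adjusted p = 0.00026), and 2 of its 3 other tested probe sets were called, at 0.78 and 1.00. BNIP3 gave 11110, 10837 and 11250 units with AZD3965, against 7428, 7101 and 6663 units with DMSO (0.65 ± 0.06, limma adjusted p = 7.5e-06), and its further probe set was called at 1.00. FAM162A gave 7860, 8488 and 8361 units with AZD3965, against 5686, 5057 and 4716 units with DMSO (0.68 ± 0.12, limma adjusted p = 0.00825). NDRG1 gave 6233, 6364 and 6547 units with AZD3965, against 4715, 4821 and 4012 units with DMSO (0.50 ± 0.08, limma adjusted p = 0.00641). None of these 4 overlapped between the groups. The 4 other tested probe sets of FAM162A gave -0.13 to 0.64, and 2 of them were called. Both FAM162A and NDRG1 missed the threshold without HS578T DMSO array 3, with adjusted p = 0.0603 and 0.0602. BNIP3L and DDIT4 also had all AZD3965 arrays above the DMSO arrays but were not called, with differences of 0.24 (limma adjusted p = 0.253) and 0.33 (limma adjusted p = 0.0717).

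Among the transcription regulators, BHLHE40 gave 4073, 4487 and 4271 units with AZD3965, against 2618, 2990 and 2756 units with DMSO (0.62 ± 0.09, limma adjusted p = 0.000871). ZNF395, a zinc finger transcription factor, gave 1138, 1158 and 1040 units with AZD3965, against 792, 741 and 727 units with DMSO (0.55 ± 0.10, limma adjusted p = 0.0163). Neither overlapped between the groups; ZNF395 missed the threshold without HS578T AZD3965 array 1 or 2 or HS578T DMSO array 2 or 3 (adjusted p = 0.0717 to 0.0965). With the mean of all probe sets of a gene, BHLHE40, ZNF395, FAM162A and P4HA1 were not called (adjusted p = 0.0626, 0.707, 0.081 and 0.964). KDM3A did not pass (0.31, limma adjusted p = 0.0754), nor did CITED2 (0.29), MXI1 (0.19) and RORA (0.28).

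P4HA1 was called among 6 collagen enzymes, with 7232, 7271 and 7566 units with AZD3965, against 5145, 5296 and 5258 units with DMSO (0.49 ± 0.06, limma adjusted p = 0.000158). The other 5 had all AZD3965 arrays above the DMSO arrays with differences of 0.25 to 0.40 and did not pass, PLOD2 coming nearest (0.37, limma adjusted p = 0.0663). TMEM45A gave 8741, 8555 and 9266 units with AZD3965, against 6820, 7263 and 6583 units with DMSO (0.36 ± 0.07, limma adjusted p = 0.016). PGM1 gave 6978, 6975 and 6998 units with AZD3965, against 6235, 5522 and 5550 units with DMSO (0.28 ± 0.06, limma adjusted p = 0.0466). Neither overlapped between the groups. The call of PGM1 was lost in 18 of 24 fits that left out 1 array, with adjusted p up to 0.197 (without HS578T DMSO array 2), and that of TMEM45A without HS578T AZD3965 array 1 or 3 or HS578T DMSO array 1 or 3 (0.0639 to 0.13). GBE1 (0.24), HILPDA (0.39), ANKRD37 (0.32) and WSB1 (0.05) were not called, with limma adjusted p-values of 0.238 to 0.953.

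None of the 7 oxygen-sensing regulators and none of the 4 secreted factors passed in HS578T. HIF1A gave 14989, 15686 and 15736 units with AZD3965, against 15448, 15865 and 14521 units with DMSO (0.02 ± 0.09, limma adjusted p = 0.99). EPAS1 gave 6639, 6135 and 5912 units with AZD3965, against 5797, 6167 and 5622 units with DMSO (0.09 ± 0.09, limma adjusted p = 0.885). Both overlapped between the groups. EGLN1 gave 2951, 2950 and 3219 units with AZD3965, against 2118, 2534 and 2489 units with DMSO, without overlap, and did not pass (0.35 ± 0.10, limma adjusted p = 0.153), although a further probe set did (0.45, limma adjusted p = 0.020). ARNT, VHL, HIF1AN and EGLN3 lay between -0.13 and 0.13. Of the secreted factors, ADM averaged 7078 ± 459 units with AZD3965 and 5461 ± 288 units with DMSO (SD, n = 3 each), without overlap (0.37, limma adjusted p = 0.155). VEGFA averaged 6624 ± 223 units with AZD3965 and 5633 ± 267 units with DMSO (0.23, limma adjusted p = 0.6), and STC1 1934 ± 65.3 units with AZD3965 and 1573 ± 200 units with DMSO (0.30, limma adjusted p = 0.492). ANGPTL4 was dim in HS578T, at 25.0, 19.3 and 15.8 units with AZD3965, against 53.0, 28.7 and 9.39 units with DMSO. PPFIA4 read 120, 92.0 and 98.9 units with AZD3965, against 46.9, 9.07 and 50.8 units with DMSO, and with no filter on low signals its difference was 1.34 ± 0.44 (limma adjusted p = 0.352).

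In the other lines AZD3965 gave 0 calls of 35. In SUM149PT, where 0.0283% of all genes tested were called (limma), 11 members reached an unadjusted p under 0.05 and 15 of 35 differences were positive. The median was -0.03, against 0.04 over all genes tested. The AZD3965 arrays lay above the DMSO arrays for 3 members (12.6% of all genes tested) and below them for 9 (8.34% of all genes). BNIP3L came nearest, with 1635, 1508 and 1265 units with AZD3965, against 1913, 1878 and 1899 units with DMSO, without overlap (-0.37 ± 0.08, limma adjusted p = 0.111). HIF1A gave 19925, 23361 and 26332 units with AZD3965, against 19281, 21574 and 19831 units with DMSO, which overlapped (0.19, limma adjusted p = 0.283). EGLN1 (-0.24), EGLN3 (-0.50), PLOD2 (-0.25), LOX (-0.25), P4HA1 (-0.16), VEGFA (-0.21), WSB1 (-0.19) and AK4 (-0.06) also had all AZD3965 arrays below the DMSO arrays, with limma adjusted p-values of 0.17 to 0.802. MXI1 (0.35), RORA (0.38) and DDIT4 (0.10) had them all above, with limma adjusted p-values of 0.157 to 0.563. EPAS1, ARNT, VHL and HIF1AN lay between -0.12 and 0.12. Without SUM149PT AZD3965 array 1, 3 members were called, not all in 1 direction. Among them were MXI1, higher (0.43, limma adjusted p = 0.0353), and PLOD2, lower (-0.33, limma adjusted p = 0.0351). The share of all genes called for AZD3965 in SUM149PT in that fit is not given here, so the count is a description only. In that fit the AZD3965 effect differed between HS578T and SUM149PT for 1.51% of all genes, against 0.191% with all arrays.

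In SUM159PT, 0% of all genes tested were called (limma), 1 member, BNIP3L, reached an unadjusted p under 0.05 (-0.17 ± 0.08) and 18 of 35 differences were positive, between -0.31 and 0.22 with a median of 0.01. The AZD3965 arrays lay above the DMSO arrays for 1 member (6.22% of all genes tested) and below them for 2 (6.35% of all genes). HIF1A (0.15), EPAS1 (0.04), ARNT (0.09), VHL (-0.13), HIF1AN (-0.07), EGLN1 (-0.09) and EGLN3 (-0.07) had overlapping arrays.

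Whether the response to AZD3965 differed between the lines was tested directly. An F test over the lines called 5 of 35 members, P4HA1 (adjusted p = 0.00112), BNIP3 (0.00112), AK4 (0.00845), BHLHE40 (0.0404) and BNIP3L (0.0404), and 0.12% of all genes tested (limma). The effect in HS578T was greater than in SUM149PT for 7 members, AK4 (0.87), P4HA1 (0.65), BNIP3 (0.65), PLOD2 (0.62), BNIP3L (0.62), BHLHE40 (0.60) and NDRG1 (0.58), as it was called for 0.141% of all genes. It was greater than in SUM159PT for 3, AK4 (0.89), BNIP3 (0.59) and P4HA1 (0.53), as it was called for 0.0283% of all genes. Both contrasts share the HS578T arrays. The F test called 2 members without HS578T DMSO array 1 (0.0212% of all genes) and 9 without scramble array 3 (0.219%). It called 3 without any 1 HS578T AZD3965 array, HS578T DMSO array 3 or SUM149PT AZD3965 array 2 or 3. It also called 3 without SUM149PT DMSO array 1 or 2, MCT1 shRNA array 2, or SUM159PT DMSO array 1 or 2. In these fits with 3 members, 0.0283% to 0.0778% of all genes were called. Against SUM149PT the count was 2 without HS578T DMSO array 1 (0.0424% of all genes, here in either direction) or SUM149PT DMSO array 1 (0.0354%). It was 3 without HS578T AZD3965 array 1 (0.0636%) or array 3 (0.0566%). It was 4 without SUM149PT AZD3965 array 2 (0.0707%) or array 3 (0.0778%) or SUM149PT DMSO array 2 (0.141%). Against SUM159PT it was 1 without SUM159PT DMSO array 2, where 0.0141% of all genes were called. After median centring the F test called 3 members and 0.0849% of all genes. The contrast with SUM159PT then called 0 members and 0% of all genes.

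The members raised by MCT1 shRNA in SUM149PT and by AZD3965 in HS578T were then set side by side. These contrasts share no arrays, but they differ in line, in agent and in duration, which cannot be told apart. BNIP3, NDRG1, P4HA1, PGM1 and TMEM45A were called higher in both, 29.4% of the 17 and 55.6% of the 9, and 0.0778% of all genes tested (11 genes) were called higher in both. A further 12 members were called with the shRNA and not with AZD3965 in HS578T, among them all 4 secreted factors, and 4 members (AK4, BHLHE40, FAM162A and ZNF395) with AZD3965 in HS578T and not with the shRNA. The overlap was 3 genes without HS578T AZD3965 array 1, 2 genes without HS578T DMSO array 3 and 3 genes after median centring. The share of all genes called higher in both was taken for the main model only, so these other overlaps are a description. Without scramble array 3, PGM1 was not called with MCT1 shRNA (limma adjusted p = 0.0559), and KDM3A and PLOD1 were called higher in both. Over the 35 members the effects had r = -0.08, and over all genes tested r = -0.03, given as a description since genes measured on the same arrays are not independent.

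**Figure D3:**
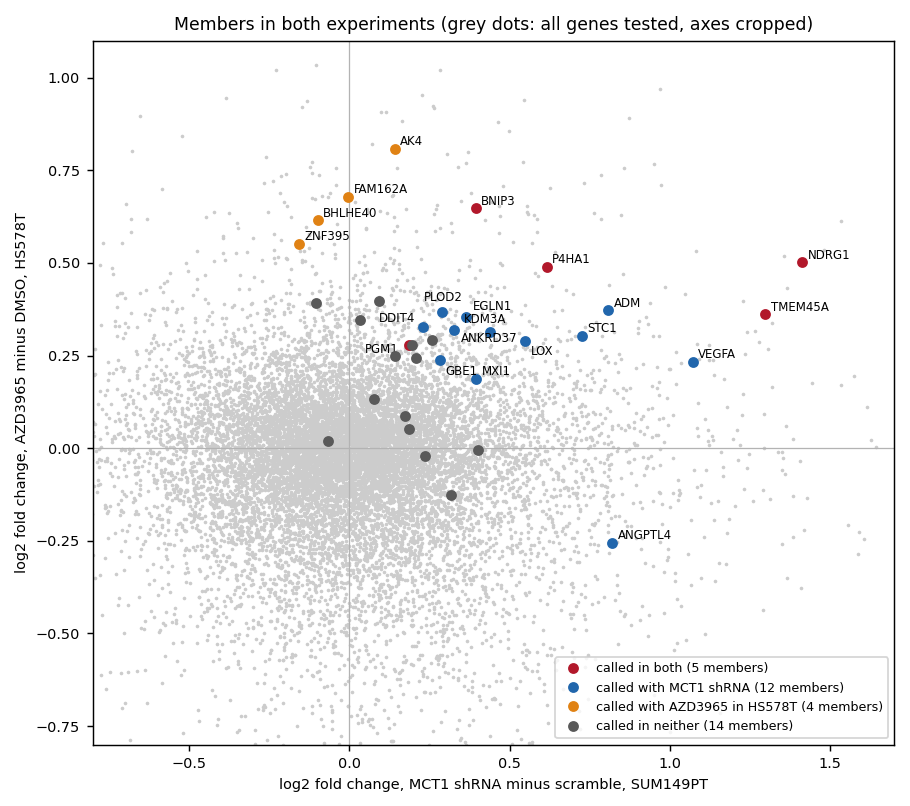
Log2 fold change of each tested member with MCT1 shRNA in SUM149PT (horizontal) and with AZD3965 in HS578T (vertical), over all genes tested in grey with the axes cropped. The 5 members called in both lie in the upper right quadrant, with NDRG1 and TMEM45A farthest right and BNIP3 highest of the 5, and the 4 called with AZD3965 in HS578T and not with the shRNA lie between -0.16 and 0.14 on the horizontal axis.

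The difference between the effects was called for 7 members, where 6.44% of all genes tested were called, 3.06% with the shRNA effect higher and 3.37% with it lower (limma). The shRNA effect was greater for TMEM45A by 0.94 ± 0.10 (limma adjusted p = 1.4e-06), for NDRG1 by 0.91 ± 0.12 (limma adjusted p = 3.6e-05) and for VEGFA by 0.84 ± 0.16 (limma adjusted p = 0.00183). So of the 5 shared members, TMEM45A and NDRG1 differed in size. The effect of AZD3965 in HS578T was greater for BHLHE40 (-0.71 ± 0.12, limma adjusted p = 0.000704), ZNF395 (-0.71 ± 0.15, limma adjusted p = 0.00417), FAM162A (-0.68 ± 0.17, limma adjusted p = 0.0141) and AK4 (-0.67 ± 0.15, limma adjusted p = 0.00624), signs being shRNA minus AZD3965. For BNIP3 (-0.25, 95% interval -0.44 to -0.07, limma adjusted p = 0.0941), P4HA1 (0.13, -0.05 to 0.30, limma adjusted p = 0.432) and PGM1 (-0.09, -0.27 to 0.08, limma adjusted p = 0.595) the difference did not pass. Nor did it for ADM (0.43, limma adjusted p = 0.0747) or ANGPTL4 (1.07 ± 0.37, limma adjusted p = 0.0893), so these are not shown to differ. After median centring 3 members were called higher, as before, and 7 lower, with ERO1A, BNIP3 and HILPDA added; without scramble array 3 the 7 calls were kept.

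Within SUM149PT the shRNA effect and the AZD3965 effect could be compared in the same line. They come from separate experiments that differ in agent, duration, control, virus and selection, which cannot be told apart. The shRNA effect exceeded the AZD3965 effect for 13 members and fell short of it for 0, where 9.52% of all genes tested were called in either direction, 4.58% higher and 4.94% lower (limma). The largest differences were NDRG1 (1.49 ± 0.12), TMEM45A (1.37 ± 0.10), VEGFA (1.28 ± 0.16), LOX (0.80 ± 0.15) and P4HA1 (0.77 ± 0.08), with limma adjusted p-values of 2.4e-08, 2.4e-09, 1.7e-05, 0.00143 and 3.0e-06. The others were STC1 (0.68), EGLN1 (0.60), ADM (0.60), BNIP3L (0.58), PLOD2 (0.54), KDM3A (0.46), BNIP3 (0.39) and WSB1 (0.37). NDRG1, for example, averaged 7861 units with MCT1 shRNA and 2944 units with scramble, and 4061 units with AZD3965 and 4273 units with DMSO. After median centring 5 of the 13 remained called, and without scramble array 3 the count was 14, with ANKRD37 added. This contrast and the one with HS578T share the shRNA experiment's arrays.

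The SUM149PT cells of both experiments allow the level of each member with a virus to be set beside that in DMSO. The experiments differ in virus, selection and DMSO, which cannot be told apart, so these are values with no test. Of the 17 members called with MCT1 shRNA, all 3 MCT1 shRNA arrays lay above all 3 SUM149PT DMSO arrays for 13 and below them for 4, where 25.2% of all genes tested lay above and 24.4% below. The 4 below were EGLN1 (5022 units with MCT1 shRNA and 6239 units with DMSO), STC1 (1769 units with MCT1 shRNA and 2510 units with DMSO), PLOD2 (8634 units with MCT1 shRNA and 11524 units with DMSO) and LOX (2021 units with MCT1 shRNA and 2212 units with DMSO). The scramble arrays lay above the DMSO arrays for 3 of the 17 (ANGPTL4, BNIP3 and PGM1), below them for 8 (EGLN1, ADM, VEGFA, STC1, PLOD2, LOX, NDRG1 and TMEM45A) and overlapped for 6, where 21.8% of all genes tested lay above and 20.3% below. The 17 were chosen by their rise over scramble, so their positions beside DMSO depend in part on that choice. Over all 35 tested members, the MCT1 shRNA arrays lay above the DMSO arrays for 21 and below them for 10. The scramble arrays lay above for 5 of the 35 and below for 15.

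For ADM, VEGFA, NDRG1 and TMEM45A, 4 of the 17, the scramble arrays lay below the DMSO arrays and the MCT1 shRNA arrays above them, while for EGLN1, STC1, PLOD2 and LOX both lay below. The share of all genes with such joint positions was not taken, so they are a description only. NDRG1 was at 7861 ± 357 units with MCT1 shRNA, 2944 ± 171 units with scramble and 4273 units with DMSO, and VEGFA at 5305 ± 319 units with MCT1 shRNA, 2519 ± 193 units with scramble and 3617 ± 152 units with DMSO (SD, n = 3 each). Without scramble array 3, the other scramble arrays lay above the DMSO arrays for 5 of the 17 (DDIT4 and GBE1 added), below them for 9 (ANKRD37 added) and overlapped for 3. Fewer arrays separate more easily, and no share over all genes was taken for this setting. These counts are therefore a description only and cannot be compared with those for all 3 scramble arrays.

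The DNA at the start sites of BNIP3, P4HA1, PGM1 and TMEM45A, 4 of the 5 genes called in both contrasts, is shown because ACGTG and GCGTG are the core letters that HIF binds. Windows of 300 bases, 250 before and 50 after the start on the gene's strand, came from RefSeq on GRCh38.p14, which held 1 or more for 29 of the 36 members. Capitals mark ACGTG or GCGTG on either strand, which reads as CACGT or CACGC on the opposite strand.
BNIP3, chr10:131981874-131982173, minus strand: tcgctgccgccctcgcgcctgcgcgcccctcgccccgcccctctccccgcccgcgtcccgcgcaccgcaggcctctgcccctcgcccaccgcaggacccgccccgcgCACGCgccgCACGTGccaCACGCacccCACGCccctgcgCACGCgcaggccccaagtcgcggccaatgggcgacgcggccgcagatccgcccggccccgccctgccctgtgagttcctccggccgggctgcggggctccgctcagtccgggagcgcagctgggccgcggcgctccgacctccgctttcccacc
P4HA1, chr10:73096817-73097116, minus strand: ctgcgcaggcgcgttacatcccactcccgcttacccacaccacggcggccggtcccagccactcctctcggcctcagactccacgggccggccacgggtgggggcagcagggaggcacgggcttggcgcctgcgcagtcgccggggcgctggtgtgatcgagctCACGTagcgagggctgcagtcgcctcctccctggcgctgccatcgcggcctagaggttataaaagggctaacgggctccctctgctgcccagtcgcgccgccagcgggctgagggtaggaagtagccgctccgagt
PGM1, chr1:63593161-63593460, plus strand, first of 3 windows: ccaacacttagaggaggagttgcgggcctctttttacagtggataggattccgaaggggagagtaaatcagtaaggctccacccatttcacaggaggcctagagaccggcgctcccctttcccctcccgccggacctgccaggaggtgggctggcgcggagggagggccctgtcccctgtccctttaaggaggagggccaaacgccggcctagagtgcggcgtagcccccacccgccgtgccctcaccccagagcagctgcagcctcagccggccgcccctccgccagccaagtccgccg
TMEM45A, chr3:100492369-100492668, plus strand: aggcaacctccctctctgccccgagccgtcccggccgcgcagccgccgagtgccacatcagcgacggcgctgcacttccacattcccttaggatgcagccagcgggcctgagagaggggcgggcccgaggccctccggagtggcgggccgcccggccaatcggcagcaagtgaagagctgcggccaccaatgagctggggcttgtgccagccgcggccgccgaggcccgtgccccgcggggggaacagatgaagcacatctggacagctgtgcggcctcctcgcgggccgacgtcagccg
BNIP3 held 2 overlapping ACGTG matches, 1 on each strand at -134 and -133 from the start, and 4 GCGTG matches between -143 and -104, all on the opposite strand. P4HA1 held 1 ACGTG match, on the opposite strand at -86. No match to these letters lay in the windows of PGM1 and TMEM45A shown, while 1 of the 3 windows of PGM1 held ACGTG. Over the members, 21 of 42 windows (50%) held ACGTG, against 21.4% of all 35116 promoter windows, and 54.8% held GCGTG, against 36.5% of all windows. By gene, 18 of 29 members (62.1%) had ACGTG in at least 1 window, against 24.9% of 27305 genes. Among members with a window, ACGTG was found for 11 of the 14 called with MCT1 shRNA and 6 of the 7 called with AZD3965 in HS578T. GCGTG lay in 57.1% of the 21 windows of members called with MCT1 shRNA and in 50% of the 12 windows of those called with AZD3965 in HS578T, near the 54.8% over all members' windows. A match to 5 letters is a description of the sequence and does not show binding.

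The wider pathway was read from lists of other HIF genes. Of 20 HIF targets of glycolysis and pyruvate control, 3 rose with MCT1 shRNA and 16 had a positive difference, the rises being those of the glucose transporters SLC2A3 (0.61 ± 0.16, limma adjusted p = 0.00914) and SLC2A1 (0.25 ± 0.07, limma adjusted p = 0.0219) and of hexokinase HK2 (0.42 ± 0.14, limma adjusted p = 0.0447). Over all genes tested 7.22% were called higher with MCT1 shRNA and 0.212% with AZD3965 in HS578T. Without scramble array 3, SLC2A3 alone of the 20 was called (0.66, limma adjusted p = 0.0143), and SLC2A1 (0.22) and HK2 (0.37) had adjusted p = 0.0707 and 0.132. With AZD3965 in HS578T 3 of 20 rose and 20 of 20 were positive. PDK1, the kinase that inhibits pyruvate dehydrogenase, averaged 1557 ± 123 units with AZD3965 and 818 ± 84.3 units with DMSO (SD, n = 3 each; 0.92 ± 0.10, limma adjusted p = 1.5e-05). SLC2A1 (0.44 ± 0.07, limma adjusted p = 0.00641) and the enolase ENO2 (0.71 ± 0.15, limma adjusted p = 0.0356) were the other rises. With AZD3965, 0 of 20 were called in SUM149PT and 0 of 20 in SUM159PT, with 8 and 2 at an unadjusted p under 0.05, counted in either direction.

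Of 14 tested among 15 other HIF regulators, OS9, a lectin of the endoplasmic reticulum reported to promote HIF1A degradation, rose with MCT1 shRNA (0.45 ± 0.07, limma adjusted p = 9.1e-05) and RBX1, the ring finger subunit of the VHL ubiquitin ligase, fell by 0.36 on the log2 scale (limma adjusted p = 0.0326). Without scramble array 3 OS9 was called at 0.45 (limma adjusted p = 0.000245) and RBX1 was not (-0.14, limma adjusted p = 0.217). SIAH2, a ubiquitin ligase for prolyl hydroxylases, did not pass (0.18, limma adjusted p = 0.234). In HS578T 0 of 14 were called, with 2 at an unadjusted p under 0.05, and the 3 of smallest p were SIAH2 (0.26), BMAL1 (0.19) and RBX1 (0.12). Of 27 tested among 30 other HIF targets, 7 rose with MCT1 shRNA and 0 fell, led by IGFBP3, a binding protein of insulin-like growth factors (1.21 ± 0.14, limma adjusted p = 1.6e-06), the collagen cross-linker LOXL2 (0.50 ± 0.09, limma adjusted p = 0.000511) and the stress transcription factor DDIT3 (0.67 ± 0.14, limma adjusted p = 0.00156), followed by HMOX1, CA12, TFRC and KDM4C. Over all genes tested 7.22% were called higher and 7.64% lower with MCT1 shRNA, and 0.212% higher with AZD3965 in HS578T. Without scramble array 3 the calls among these targets were IGFBP3, LOXL2 and DDIT3, 3 of 27, where 12.3% of all genes were called. In HS578T 1 of 27 rose, GPRC5A (0.34 ± 0.07, limma adjusted p = 0.0425), while the carbonic anhydrase CA12 (0.29, limma adjusted p = 0.146) and the creatine transporter SLC6A8 (0.38, limma adjusted p = 0.253) were not called.

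The last comparison set the lines against each other under DMSO. An F test called 31 of 35 members, where 77% of all genes tested were called (limma); ARNT, VHL, MXI1 and RORA were not called. In HS578T minus SUM149PT 28 members were called, 14 higher and 14 lower, where 64.2% of all genes tested were called, 30.4% higher and 33.8% lower. In HS578T minus SUM159PT it was 28 members, 18 higher and 10 lower, and 58% of all genes, 27.3% higher and 30.7% lower. In SUM149PT minus SUM159PT it was 27 members, 17 higher and 10 lower, and 59.4% of all genes, 30% higher and 29.3% lower. The mean was highest in HS578T for 15 members, in SUM149PT for 11 and in SUM159PT for 9, and all 3 pairs of lines differed for 21 members. The counts in the last sentence were not taken over all genes and are a description only.

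The regulators had their own order of levels. HIF1A averaged 15278 ± 688 units in HS578T, 20229 ± 1197 units in SUM149PT and 20544 ± 1019 units in SUM159PT (SD, n = 3 each). It was lower in HS578T than in SUM149PT (-0.40, limma adjusted p = 0.000348) and SUM159PT (-0.43, limma adjusted p = 0.000231), and SUM149PT minus SUM159PT did not pass (-0.02, limma adjusted p = 0.849). EPAS1 averaged 5862 ± 278 units in HS578T, 13015 ± 978 units in SUM149PT and 6119 ± 544 units in SUM159PT. SUM149PT was above both, by 1.15 over HS578T and 1.09 over SUM159PT, whose own difference did not pass (-0.06 for HS578T minus SUM159PT, limma adjusted p = 0.587). EGLN1 averaged 2380 ± 228 units in HS578T, 6239 ± 49.7 units in SUM149PT and 3510 ± 267 units in SUM159PT, and all 3 lines differed. HIF1AN was higher in HS578T than in SUM149PT (0.30) and SUM159PT (0.43), and SUM149PT minus SUM159PT did not pass (0.13, limma adjusted p = 0.341). The F tests of ARNT and VHL gave adjusted p = 0.824 and 0.412.

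The 6 members of largest range between lines were AK4, LOX, CITED2, STC1, EGLN3 and ADM. AK4 gave 2009, 2239 and 2218 units in HS578T, 2816, 2731 and 2710 units in SUM149PT and 123, 140 and 134 units in SUM159PT, an 18.7-fold range. LOX gave 12671, 12557 and 12534 units in HS578T, 2179, 2224 and 2233 units in SUM149PT and 711, 752 and 569 units in SUM159PT, an 18.3-fold range. Both were lowest in SUM159PT, but HS578T was highest for LOX and SUM149PT for AK4. CITED2 gave 2296, 2963 and 3353 units in HS578T, 263, 253 and 310 units in SUM149PT and 1964, 1599 and 2092 units in SUM159PT, a 9.83-fold range. STC1 gave 1754, 1605 and 1358 units in HS578T, 2712, 2525 and 2292 units in SUM149PT and 228, 297 and 247 units in SUM159PT, a 9.28-fold range. CITED2 was thus lowest in SUM149PT, where STC1 was highest. EGLN3 gave 28.4, 24.5 and 30.6 units in HS578T, 92.3, 88.5 and 63.9 units in SUM149PT and 388, 362 and 411 units in SUM159PT, a 9.20-fold range. ADM gave 5780, 5384 and 5220 units in HS578T, 2141, 2828 and 2585 units in SUM149PT and 708, 643 and 682 units in SUM159PT, a 7.89-fold range. The arrays of the 3 lines did not overlap for these genes, and each neighbouring pair in the order of levels passed the test, with limma adjusted p-values of at most 0.00609 (CITED2, HS578T minus SUM159PT). RORA's probe set of highest mean was dim in every line, and a further probe set was higher in HS578T than in SUM149PT by 2.97.

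**Figure D4:**
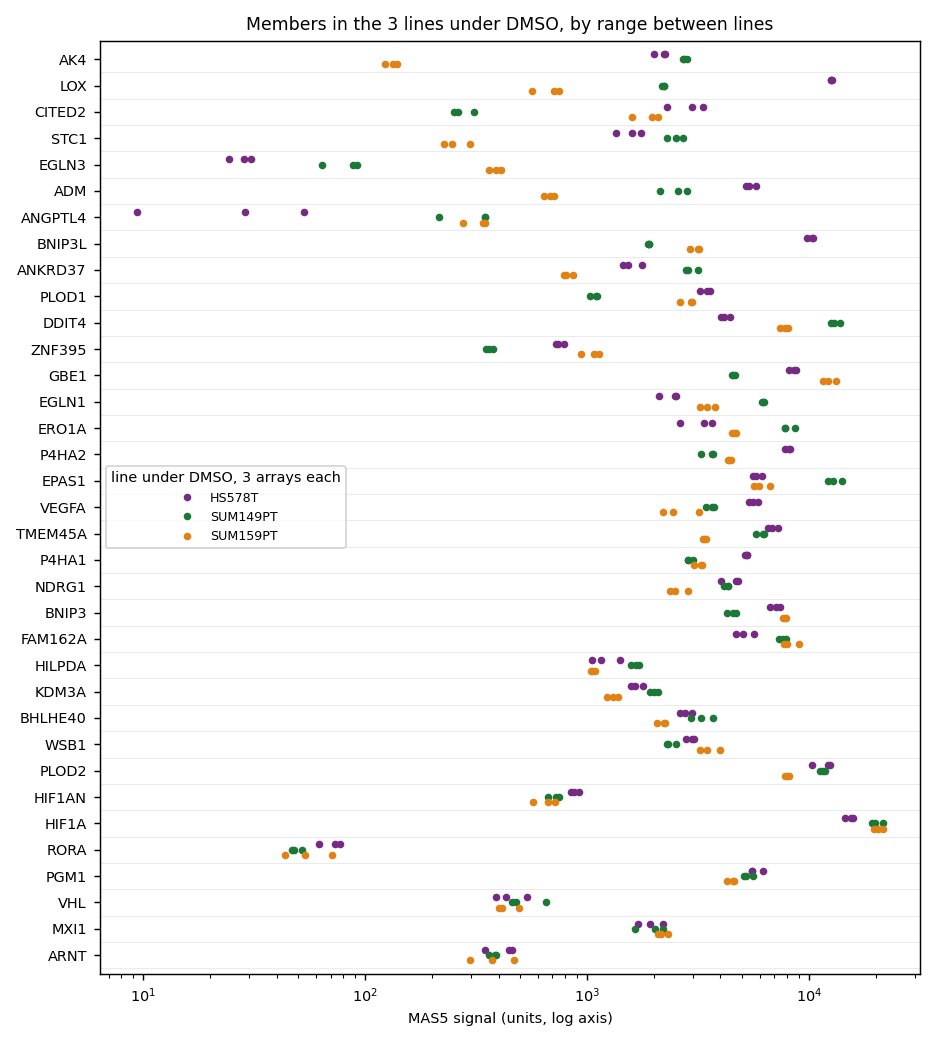
Signal on each of 3 arrays, on a log axis in MAS5 units, of each of the 35 tested members in HS578T, SUM149PT and SUM159PT under DMSO, ordered by the range between lines. AK4 and LOX span 18.7-fold and 18.3-fold.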

How the data were processed

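RNA was measured on 24 arrays, 3 in each of 8 groups. The deposited values were probe set intensities on a linear scale, made by the authors with MAS5, per the submitters' processing notes (MAS5 version not given in the sources used here). The arrays had been scaled before they were deposited, since the trimmed mean (2% from each end) was 500.1 units on each. Arrays have no read depth, so the number of arrays limits the precision.

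Of 54675 probe sets, 41097 had 1 gene symbol in the annotation, 1801 several and 11777 none. For 41043 of those with 1 symbol, the symbol was looked up by gene ID. Signals were taken as log2(signal + 16). Each gene was represented by its probe set of highest mean, and genes with a mean log2 value under the 40th percentile (5.58) were left out, so 14141 of 19775 were tested. One limma 3.58.1 model (R 4.3.3) of 8 group means with an intensity trend (16 residual and 6.52 prior degrees of freedom) gave every contrast, two-sided, with Benjamini-Hochberg adjustment over the genes tested and calls at 0.05. The procedure was tested on simulated data. Errors after ± are standard errors for differences and SDs for signals.

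The members, the other lists and the tests were chosen with earlier results of these data known. Named were the members called, the 7 regulators in every comparison and, of other lists, the 3 genes of smallest p. Signals of single arrays were given for genes called in both treatments, the 6 of largest change in each and the 6 of largest range between lines. The probe sets of the targeted transporter were not named in the annotation used, so its level was not checked and is not reported here. Groups shared replicate numbers, and the deviations of same-numbered arrays from their group means had correlations of -0.13 to 0.08 over 12 pairs. The main model held no replicate block. Alternatives were offsets of 1 and 64, quantile normalization, median centring, no filter, a 60th percentile filter, the mean of probe sets, the arrays of one experiment, no trend, array weights, a replicate block and leaving out each array.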

Additional observations from a re-analysis of the deposited data

Results flagged for a closer look

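The effect of AZD3965 differed between the lines for 5 members by limma's F test, with adjusted p-values of 0.00112 for P4HA1, 0.00112 for BNIP3, 0.00845 for AK4, 0.0404 for BHLHE40 and 0.0404 for BNIP3L. The first 4 were called higher in HS578T, and BNIP3L had its largest difference, -0.37, in SUM149PT, where it did not pass.

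The effect of MCT1 shRNA in SUM149PT differed from that of AZD3965 in HS578T for 7 members by limma's test of the difference. It was more positive for TMEM45A (0.94), NDRG1 (0.91) and VEGFA (0.84) and less positive for BHLHE40 (-0.71), ZNF395 (-0.71), FAM162A (-0.68) and AK4 (-0.67).

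Within SUM149PT the shRNA effect exceeded the AZD3965 effect, in log2 units, for NDRG1 (1.49), TMEM45A (1.37), VEGFA (1.28), LOX (0.8), P4HA1 (0.77), STC1 (0.68), EGLN1 (0.6), ADM (0.6), BNIP3L (0.58), PLOD2 (0.54), KDM3A (0.46), BNIP3 (0.39) and WSB1 (0.37), each by limma's test of the difference.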

How the results depend on the processing

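Over 11 alternatives and 24 fits that each left out 1 array, no value of a called result changed sign. The calls of ADM, VEGFA, STC1, NDRG1 and TMEM45A with MCT1 shRNA and of BNIP3 and AK4 with AZD3965 in HS578T were kept in all of them. Median centring gave 7 calls with MCT1 shRNA (12.2% of all genes) and 5 for shRNA minus AZD3965 in SUM149PT (3.68%). It gave 0 for HS578T minus SUM159PT in the AZD3965 effect (0%), 3 in the F test of that effect (0.0849%) and an overlap of 3. The mean of probe sets gave 1 for HS578T minus SUM159PT (0.0152% of all genes). The arrays of one experiment gave 8 with MCT1 shRNA (6.11%) and cannot give the contrasts between experiments. With no variance trend HS578T minus SUM149PT gave 4 (0.191% of all genes) and the F test 3 (0.099%). Array weights gave 21 with AZD3965 in HS578T and 1 in SUM149PT (BNIP3L, lower), 15 for HS578T minus SUM149PT, 6 for HS578T minus SUM159PT and 14 in the F test, where 2.74%, 1.33%, 2.52%, 0.141% and 1.05% of all genes were called, and an overlap of 13. The causes were not tested. Leaving out 1 array gave 12 to 18 calls with MCT1 shRNA (10.9% to 16.3% of all genes) and 4 to 14 with AZD3965 in HS578T (0.106% to 0.545%). It gave 0 to 3 in SUM149PT and 0 to 0 in SUM159PT, given without the share over all genes and so as a description only. It gave 7 to 8 for shRNA minus AZD3965 in HS578T (4.46% to 7.64% of all genes) and 11 to 15 for shRNA minus AZD3965 in SUM149PT (6.18% to 12.5%). For HS578T minus SUM149PT it gave 2 to 10 (0.0354% to 1.51%) and for HS578T minus SUM159PT 1 to 4 (0.0141% to 0.0566%). The F test gave 2 to 9 (0.0212% to 0.325%), and the overlap was 2 to 7. All overlaps in this section are given without the share over all genes and are a description only. The replicate block gave 15 calls with MCT1 shRNA (14.9% of all genes) and 7 with AZD3965 in HS578T (0.156%). In 4 of 12 pairs the arrays correlated best with their own number. Among them were all 3 pairs of AZD3965 and DMSO in SUM149PT, at 0.05 to 0.08. Whether same-numbered arrays share more than a number is not settled by these values. Dim signals limit some members, as ANGPTL4 read 9.39 to 53.0 units in HS578T cells and RORA and EGLN3 averaged under 100 units in several groups.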
